A study of Homo sapiens with 8 samples.

Results

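The variable loop of type I tRNAs was defined here as positions 44 to 49 of the reference, counted from 1 at the 5′ end, on the sense strand of every tRNA other than those for leucine, serine and selenocysteine. A site is a single nucleotide of a reference at which an iCLIP library holds at least 1 count. Over 8 libraries, 551 such sites carried counts, of 18831 sites in all and of 6731 sense sites on type I tRNAs. They lay on 125 of 214 type I references, a reference being 1 tRNA sequence that can stand for several identical genes, and in 37 of 40 type I families, a family being all references of 1 amino acid and anticodon. The values reported are the counts in these 6 positions, mostly as a share of all sense counts of the family in the same library.

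Type I tRNAs have a short variable loop between the anticodon stem and the T stem, whereas tRNAs for leucine, serine and selenocysteine carry a long variable arm there. Dihydrouridine synthases reduce uridine to dihydrouridine in tRNA, and the human enzymes DUS1L and DUS2L are known for uridines of the D loop, while DUS3L is known for the uridine of the variable loop. In iCLIP, a protein is crosslinked to RNA and purified, and cDNAs end next to the linked base, so that counts pile up at single nucleotides. 5-Chlorouridine (5-ClUrd) is a chlorinated uridine that cells incorporate into their RNA, where it can hold an enzyme that attacks uridine on its substrate.

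The sequences below were read for tRNA genes that lie wholly inside the start-site stretch of a neighbouring gene in RefSeq (GRCh38.p14), and are written 5′ to 3′ with positions 44 to 49 in capitals. The first 3 belong to families with many variable-loop counts, which the results on families turn on.
tRNA-Phe-GAA-1-5: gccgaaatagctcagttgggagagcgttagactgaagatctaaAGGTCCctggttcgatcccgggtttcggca
tRNA-Arg-ACG-2-1: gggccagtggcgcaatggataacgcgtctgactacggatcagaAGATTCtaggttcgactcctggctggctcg
tRNA-Ala-AGC-2-2: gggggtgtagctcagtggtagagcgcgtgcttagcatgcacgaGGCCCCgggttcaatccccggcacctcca
The next 2 are a pair of asparagine tRNAs of like sequence whose counts ended at different positions.
tRNA-Asn-GTT-4-1: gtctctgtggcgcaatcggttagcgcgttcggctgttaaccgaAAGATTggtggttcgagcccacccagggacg
tRNA-Asn-GTT-6-1: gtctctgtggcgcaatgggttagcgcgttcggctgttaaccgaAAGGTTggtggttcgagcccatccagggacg
The last 2 are a histidine tRNA counted far more in the DUS2L libraries and a proline tRNA with no variable-loop count.
tRNA-His-GTG-1-3: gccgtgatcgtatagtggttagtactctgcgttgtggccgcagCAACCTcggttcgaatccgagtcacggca
tRNA-Pro-TGG-3-5: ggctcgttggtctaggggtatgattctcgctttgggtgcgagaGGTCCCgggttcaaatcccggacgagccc
The phenylalanine gene lies at chr13:94549650-94549722 on the minus strand, inside the start-site stretch of LOC124903191. The arginine gene lies at chr3:45688999-45689071 (minus strand, LIMD1-AS1), and the alanine gene at chr6:28863685-28863756 (minus strand, LINC01623). The asparagine genes lie at chr1:16889677-16889750 (plus strand, LOC105376805) and chr1:143735920-143735993 (minus strand, LOC107985108). The histidine gene lies at chr1:148281365-148281436 (plus strand, LINC01731) and the proline gene at chr16:3188094-3188165 (plus strand, OR1F1). Each of these RefSeq genes has no intron. The first base of the anticodon lies at position 33 in the alanine and proline tRNAs, 34 in those for phenylalanine, arginine and histidine, and 35 in those for asparagine, so the capitals do not start at the same structural base in all of them. Of 357 type I gene names, 334 matched a RefSeq symbol.

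The cells were Flp-In T-Rex 293, a line derived from human embryonic kidney, made to express 3xFLAG-tagged DUS1L or DUS2L on addition of tetracycline, so that the tagged enzyme is an added copy. All groups received 1 µg/mL tetracycline for 12 h and then fresh medium with 1 µg/mL tetracycline for another 12 h. The untreated groups received no analogue, and in the treated groups the second medium also held 100 µM 5-ClUrd. Each of the 4 groups (DUS1L untreated, DUS1L 5-ClUrd, DUS2L untreated, DUS2L 5-ClUrd) had 2 libraries, and no library without a tagged enzyme was analysed here.

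Sense counts per library were between 130011 and 824657 in 7 libraries, and 7369 in the second untreated DUS1L library. That library held 78 variable-loop counts, against 562 to 44830 in the others. By their names, the DUS2L site files were premapped to non-coding RNA, which those of DUS1L do not say, so enzyme and file preparation cannot be told apart.

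Counts in the variable loop made up a larger share of type I counts with DUS1L than with DUS2L in the treated cells. The share was 6.02% and 4.71% in the treated DUS1L libraries and 0.958% and 1.12% in the treated DUS2L libraries, so that both DUS1L libraries lay above both DUS2L libraries. The mean was 5.37% ± 0.923 (SD, n = 2) against 1.04% ± 0.116 (SD, n = 2), a difference of -4.33 percentage points for DUS2L minus DUS1L. In an exact permutation test (two-sided) p was 0.33, the smallest p that 2 libraries against 2 allow. With each of 37 families weighted equally, the means were 3.45% ± 0.449 (SD, n = 2) for DUS1L and 1.57% ± 0.128 (SD, n = 2) for DUS2L.

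Without the analogue, the DUS1L libraries did not resemble each other. The share was 7.49% in the first and 1.10% in the second (95% Wilson interval 0.880% to 1.37%, counting error only), and the treated libraries lay between them. The difference between treated and untreated DUS1L libraries was 1.07 percentage points (exact two-sided permutation test, p = 1). Leaving out the second untreated library turned this difference to -2.12 points. In DUS2L the untreated libraries held 0.830% and 0.848%, and both treated libraries lay above them. The DUS2L difference was 0.200 percentage points (exact two-sided permutation test, p = 0.33), and it turned to -0.631 points when sites with over 500 counts in any library were left out.

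**Figure D1:**
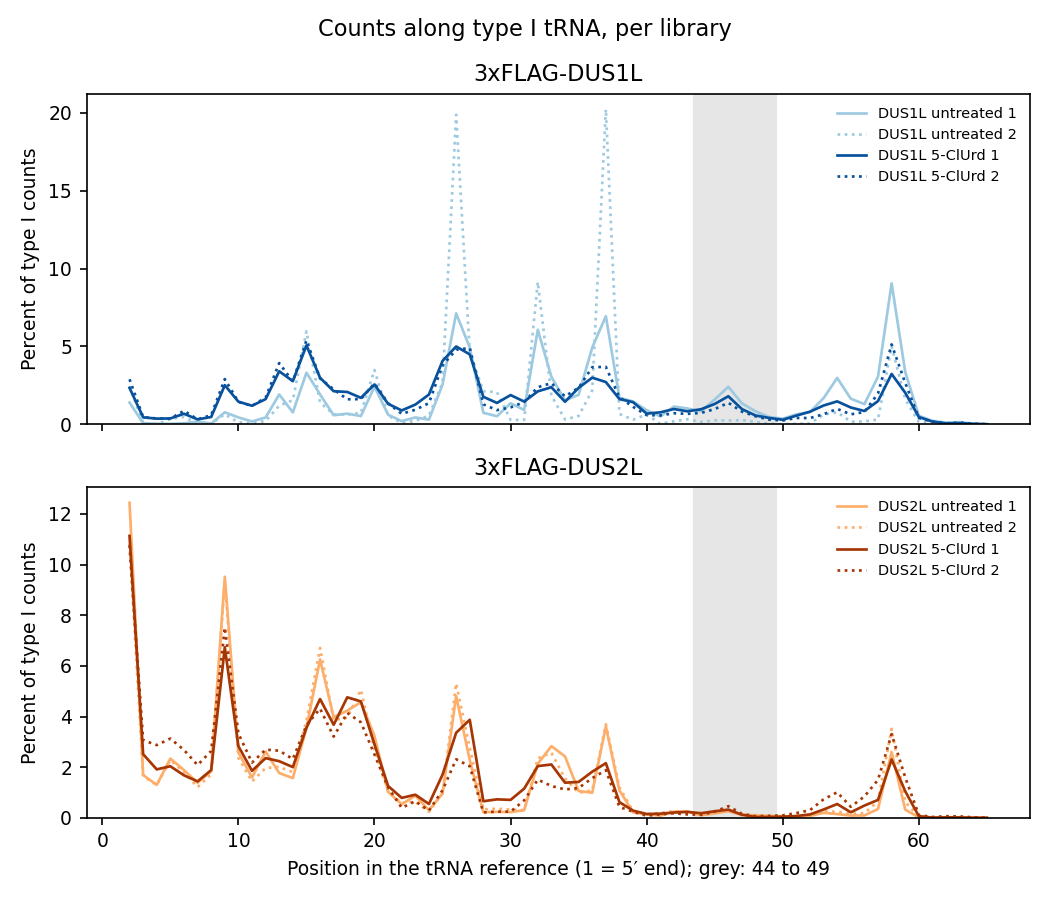
Percent of type I sense counts at each position of the reference, 1 line per library (solid, library 1; dotted, library 2), with positions 44 to 49 in grey. In DUS1L 3 lines rise at position 46, to 2.41% in the first untreated library and 1.80% and 1.38% in the treated ones. The second untreated DUS1L library shows no such rise, with 0.239% there, and the DUS2L lines stay between 0.258% and 0.460%.

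**Figure D2:**
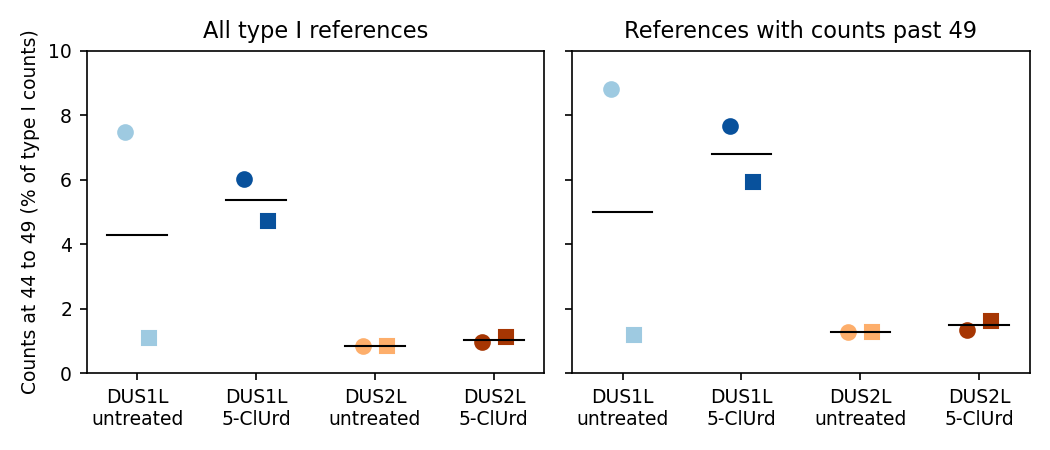
Counts at positions 44 to 49 as a percent of type I counts, 1 point per library (circle, library 1; square, library 2) with a bar at the group mean, over all type I references (left) and over those with counts past position 49 (right). The treated DUS1L libraries sit at 6.02% and 4.71% (left), above all DUS2L libraries, and the untreated DUS1L libraries at 7.49% and 1.10%.

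How far counts reached differed between references, which sets which of them can show a variable-loop site. Of 214 references, 84 had their last counted position, over all libraries, before position 44, 28 had it inside the loop, and 102 had counts past position 49. The 3 proline families had no reference with a count past position 43. The treated DUS2L libraries held 4128 and 7257 counts of tRNA-Pro-TGG with 0 in the loop. By counting error alone this allows a share of up to 0.0727% and 0.0413%. Counts on this family ended at or before position 37, so these limits do not bound contact at its loop. All references of tRNA-Arg-ACG ended exactly at position 49, and no reference of tRNA-Ala-TGC passed it. The asparagine pair printed above differs at C17G, A47G and C65T (base of tRNA-Asn-GTT-4-1, position, base of tRNA-Asn-GTT-6-1). Counts on tRNA-Asn-GTT-4-1 ended at position 46 and those on tRNA-Asn-GTT-6-1 at position 64, in each case 1 base before a differing base. The part of sequence differences between references in where counts end was not tested.

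Among references with counts past position 49 the shares were higher in every library, and the order of the groups was as before. They were 8.81% and 1.19% in untreated DUS1L, 7.67% and 5.92% in treated DUS1L, 1.26% and 1.27% in untreated DUS2L and 1.35% and 1.63% in treated DUS2L. These references held between 58.6% and 77.9% of the type I counts of a library. They were picked by the counts of all 8 libraries. The 84 references that ended before position 44 dropped out, and so did the 28 that ended inside the loop, among them all of tRNA-Arg-ACG. Loss of the 84 favours higher shares, while loss of the 28 also takes loop counts away. The group order is not a separate check, since the same counts set the filter.

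Inside the loop, counts were highest at position 46 in all libraries except the second untreated DUS1L library. In the treated DUS1L libraries, position 46 held 29.9% and 29.3% of the loop's counts, position 45 held 21.7% and 20.7%, and position 49 held 6.78% and 6.32%. In the treated DUS2L libraries, position 46 held 33.9% and 41.0%, position 45 held 27.2% and 21.8%, and position 49 held 3.64% and 6.83%. Both DUS2L libraries were above both DUS1L libraries at position 46 and below them at position 48, where the shares were 3.4% and 5.6% against 9.38% and 10.9%. The second untreated DUS1L library had 17 counts at position 46 and 19 at position 47, of 78 in all. These shares include the 28 references whose last count fell inside the loop, such as tRNA-Asn-GTT-4-1 (position 46) and tRNA-Ala-AGC-2-2 (position 45). They therefore mix where counts lay with where references ended, and the part of each was not tested.

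Type I tRNAs differ in length, so the same position is not the same structural base in all of them. For 185 references whose RefSeq genes gave 1 intron-free length, positions were also counted back from the 3′ end, in a frame of 73 bases that held 88.7% of the type I counts. Within the loop the highest position was then 46 in all 8 libraries, with 1.72% and 1.37% of counts in treated DUS1L and 0.389% and 0.466% in treated DUS2L. Position 49, the first base past the loop in this frame, held 0.369% and 0.253%, and 0.0177% and 0.0341%.

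**Figure D3:**
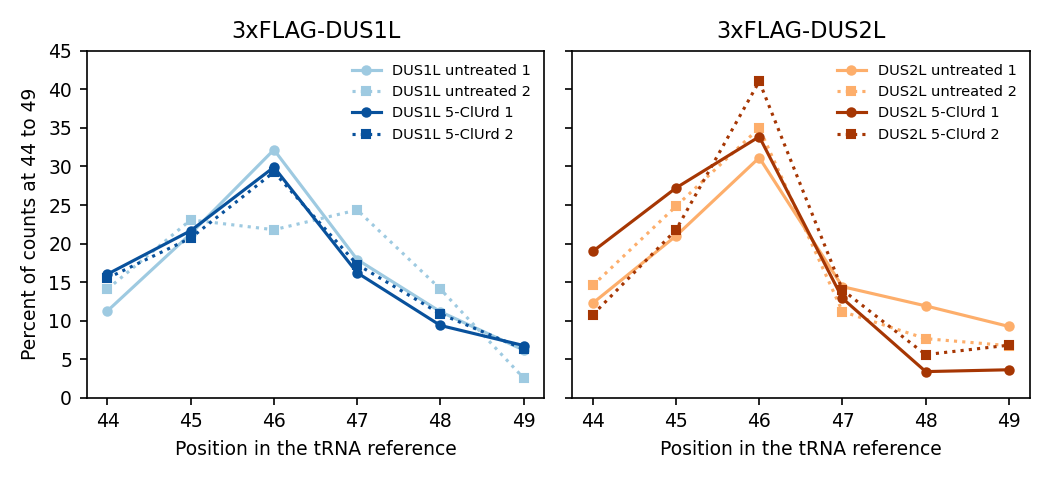
Percent of the counts at positions 44 to 49 that fell on each position, per library (solid line and circles, library 1; dotted line and squares, library 2). Position 46 leads in 7 of 8 libraries, and the second untreated DUS1L library, with 78 counts in the loop, is flat from 45 to 47. References whose counts ended inside the loop are included.

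The printed sequences show which bases these are. In tRNA-Phe-GAA-1-5, which reads phenylalanine codons and stands for 6 genes, the 8 libraries together held 537 counts at A44, 1458 at G45, 1931 at G46, 762 at T47, 514 at C48 and 358 at C49. In tRNA-Arg-ACG-2-1 they held 219 at A44, 463 at G45, 668 at A46, 637 at T47, 167 at T48 and 172 at C49. In tRNA-Phe-GAA-1-5 the single uridine of the loop, T47 in the gene, held fewer counts than G45 and G46 and more than A44. In tRNA-Arg-ACG-2-1, which has T at 47 and 48, the counts at A46 and T47 were close, and over all references of tRNA-Arg-ACG position 47 held more than 46 in both treated DUS1L libraries (986 against 920, and 646 against 512). In tRNA-His-GTG-1-3 the loop is C-A-A-C-C-T, and the most counts, 276, were at A46. Whether a deposited site is the linked base or the base beside it is not given in the sources used here. Base shares were taken over 5 references whose sequences were read and whose counts reached position 49. They were tRNA-Phe-GAA-1-5, tRNA-Arg-ACG-2-1, tRNA-Asn-GTT-6-1, tRNA-His-GTG-1-3 and tRNA-Gly-CCC-2-2, the last of which is not printed above. In treated DUS1L, G held 48% of their loop counts at 23.3% of positions, and T held 19.9% at 20% of positions. Most of these counts, 3241 and 1669 in the treated DUS1L libraries, came from tRNA-Phe-GAA-1-5. In treated DUS2L, A held 43.5% and T 7.56%, and most of these counts came from tRNA-His-GTG-1-3.

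The families with the highest share in the loop with DUS1L were arginine, isoleucine, phenylalanine and lysine tRNAs. By mean treated share, among 35 families with at least 100 counts in each treated library, the order was tRNA-Arg-ACG, tRNA-Ile-TAT, tRNA-Arg-CCT, tRNA-Phe-GAA, tRNA-Lys-TTT, tRNA-Ile-AAT, tRNA-Arg-TCT and tRNA-Trp-CCA. For tRNA-Arg-ACG the treated libraries held 13.05% and 12.4% of the family's counts in the loop, and the untreated ones 7.59% and 1.97%. For tRNA-Ile-TAT the treated values were 14.9% and 8.62%, and the untreated 4.73% and 4.0%. In both families the treated libraries lay above the untreated ones, an order that ranking by treated share favours. It was seen in 50.4% of all DUS1L family regions tested. For tRNA-Phe-GAA the treated libraries held 10.1% and 9.66%, and they fell between untreated values of 13.5% and 0.183%. For tRNA-Arg-CCT they held 11.9% and 9.31%, above 8.48% and 1.85%. For tRNA-Lys-TTT they held 8.86% and 8.54%, above 7.19% and 4.35%. For tRNA-Ile-AAT, 8.48% and 8.68% lay between 11.1% and 3.85%, and for tRNA-Arg-TCT, 8.28% and 6.01% lay between 12.8% and 3.41%. The spread between untreated libraries was thus wider than that between treated libraries in each of these families except tRNA-Ile-TAT.

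With DUS2L the highest family was a single-library value. tRNA-Arg-TCT held 15.7% of its counts in the loop in the first treated library and 2.76% in the second, against 3.37% and 2.13% untreated. It was followed by tRNA-Ile-TAT (3.09% and 7.59% treated), tRNA-Ile-AAT (2.45% and 5.96%), tRNA-Arg-CCT (2.86% and 5.37%), tRNA-Ala-AGC (3.96% and 3.33%), tRNA-Lys-TTT (2.90% and 4.17%), tRNA-Arg-ACG (3.23% and 3.72%) and tRNA-Arg-TCG (3.36% and 1.84%). Of these, tRNA-Ala-AGC, tRNA-Arg-ACG and tRNA-Arg-TCG had both treated libraries above both untreated ones. The untreated values were 1.73% and 2.52%, 2.82% and 2.82%, and 1.65% and 1.23%. Ranking by treated share favours treated libraries above untreated ones, an order that 39.3% of all DUS2L family regions tested showed.

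Families that were high with one enzyme tended to be high with the other. Over 34 families with at least 100 counts in every treated library, the family shares of the enzymes correlated with Spearman's rho = 0.806 and Pearson's r = 0.699, as a description across families that share the reference set and, within an enzyme, the libraries. The mean treated share was higher with DUS1L in 25 of the 34, with medians of 2.34% and 1.29%. Low shares with both were seen for tRNA-Lys-CTT, the other lysine tRNA, and for tRNA-Asp-GTC. tRNA-Lys-CTT held 0.125% and 0.0732% with DUS1L and 0.0251% and 0.0718% with DUS2L. tRNA-Asp-GTC held 0.132% and 0.0787%, and 0.150% and 0.321%. Only 3.58% of tRNA-Lys-CTT counts lay on references with counts past position 49. Of 3 tRNA-Asp-GTC references, 1 had counts past it. On such references, tRNA-Lys-CTT held 2.86% and 3.49% in treated DUS1L and 0.877% and 1.26% in treated DUS2L. tRNA-Asp-GTC held 1.22% and 0.526%, and 0.611% and 1.21%. The part of reach in the low family shares was not tested. tRNA-His-GTG was among the lower families as well, with 0.664% and 0.555% in treated DUS1L and 0.615% and 0.702% in treated DUS2L.

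**Figure D4:**
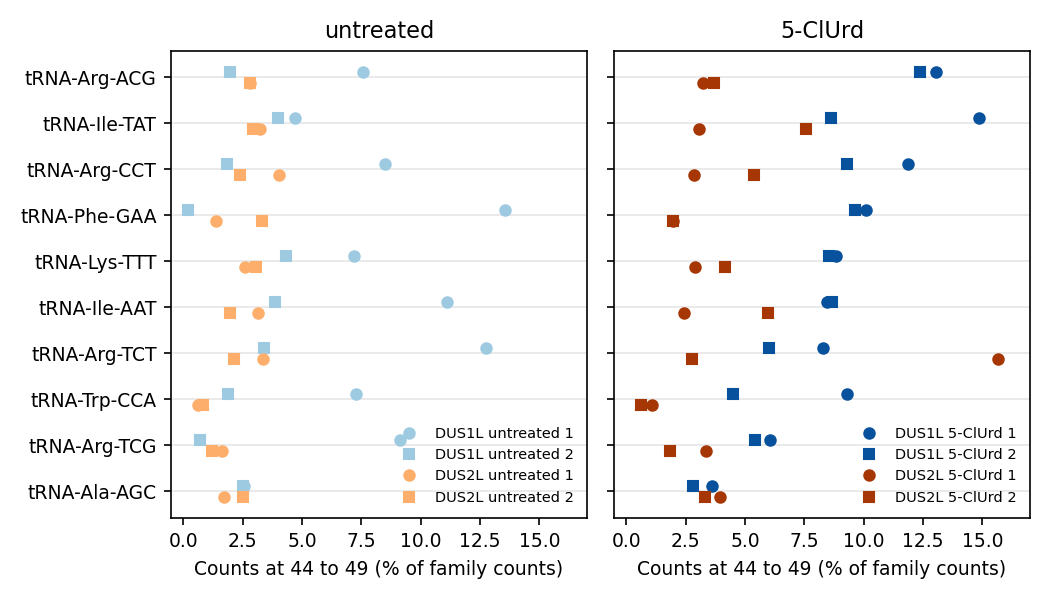
Share of each family's counts that lay at positions 44 to 49, for the families named by their treated share, in untreated (left) and treated (right) cells, 1 point per library (circle, library 1; square, library 2). In treated cells tRNA-Arg-ACG sits at 13.05% and 12.4% with DUS1L and at 3.23% and 3.72% with DUS2L, and tRNA-Arg-TCT with DUS2L at 15.7% and 2.76%.

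References of a family did not share 1 value. In tRNA-Arg-TCT, the high value of the first treated DUS2L library came from tRNA-Arg-TCT-3-2, with 168 of 422 counts in the loop (39.8%), and tRNA-Arg-TCT-2-1, with 20 of 81 (24.7%), whereas tRNA-Arg-TCT-1-1 and tRNA-Arg-TCT-4-1 stood at 4.93% and 4.79%. In the second treated DUS2L library tRNA-Arg-TCT-3-2 held 10 of 188 counts there (5.32%). In tRNA-Arg-CCT, the treated DUS1L libraries held 14.5% and 12.2% on tRNA-Arg-CCT-1-1 and 9.03% and 7.61% on tRNA-Arg-CCT-4-1. In tRNA-Arg-TCG, tRNA-Arg-TCG-1-1 stood at 9.58% in both treated DUS1L libraries, and tRNA-Arg-TCG-4-1 at 3.50% and 1.44%. The highest treated DUS1L values of a reference with over 500 counts in both libraries were those of tRNA-Asn-GTT-11-2, with 487 of 1552 counts (31.4%) and 102 of 563 (18.1%). tRNA-Met-CAT-6-1, an elongator methionine tRNA, held 6.33% and 4.08% in treated DUS1L. In treated DUS2L it held 0 of 37 and 0 of 86 counts, which allows up to 8.11% and 3.49%, so a difference was not detectable at this depth in the first of them.

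The effect of 5-ClUrd on the loop was tested per family with edgeR's quasi-likelihood test, with the family total of each library as the offset and Benjamini-Hochberg adjustment over all families and regions of tRNA. With DUS1L, 0 of 25 testable loop families passed an adjusted p of 0.05, and 0% of all 335 family regions did. 1 loop family had an unadjusted p under 0.05, and DESeq2 also called 0. Scaling to the library total called 4 higher and 1 lower, and with TMM factors 3 were called lower. The family with an unadjusted p under 0.05 was tRNA-Cys-GCA, with a log2 change of -2.66 ± 0.87 (SE, n = 2 per group) and an adjusted p of 0.118 (edgeR). Its shares were 3.68% and 11.1% untreated and 0.772% and 0.704% treated, but the second untreated library held only 18 counts of the family. The median log2 change was 0.51 over the loop families and 0.82 over all features.

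By library, 12 of the 25 families lay higher in both treated DUS1L libraries than in both untreated ones, against 50.4% of all features, and 2 lay lower, against 11% of all features. The result hung on the untreated libraries. Without the first, 8 families were called higher in treated cells (tRNA-Arg-ACG, tRNA-Arg-CCG, tRNA-Arg-CCT, tRNA-Arg-TCG, tRNA-Arg-TCT, tRNA-Met-CAT, tRNA-Phe-GAA and tRNA-Tyr-GTA). Without the second, 6 were called, 1 higher and 5 lower, among them tRNA-Arg-TCG and tRNA-Arg-TCT in the opposite direction.

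At single positions of DUS1L families, 2 of 134 loop sites were called, against 8.12% of 1662 sites in all. tRNA-Ile-TAT position 45 was higher in treated cells, with 1 and 0 counts in the untreated libraries and 232 and 84 in the treated ones (log2 change 4.35 ± 1.42, SE; adjusted p = 0.0357, edgeR). As shares of the family, this was 0.0509% and 0% against 1.20% and 0.875%, with no overlap. tRNA-Cys-GCA position 45 was lower (log2 change -3.38 ± 0.84, SE; adjusted p = 0.00395, edgeR), with 33 of 1384 and 0 of 18 counts untreated and 17 of 5827 and 5 of 4259 treated, so that the shares overlapped. Scaling to the library total called 17 sites higher and 6 lower, and with TMM factors 2 higher and 13 lower. Leaving out the first untreated library gave 17 called sites, leaving out the second gave 5, and leaving out either treated library gave 1.

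With DUS2L, 0 of 27 testable loop families were called by edgeR, against 11.4% of 473 features. 3 had an unadjusted p under 0.05, all of them higher in treated cells, and DESeq2 called 0. These counts depended on the scaling, since the library total in place of the family total called 11 higher and 0 lower, and with TMM factors 6 were called higher and 3 lower. For tRNA-Gly-GCC the shares were 0.428% and 0.360% untreated and 0.759% and 1.95% treated (log2 change 1.78 ± 0.83, SE, n = 2 per group; adjusted p = 0.181, edgeR). For tRNA-Arg-TCT the log2 change was 1.75 ± 0.79 (SE; adjusted p = 0.166, edgeR). The third was tRNA-Thr-AGT, with 0 of 182 and 0 of 223 counts in the loop untreated, which allows up to 1.65% and 1.35%, and 1.66% and 1.08% treated.

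Of the 27 families, 7 lay higher and 6 lower in both treated DUS2L libraries, against 39.3% and 22.4% of all features. Without the first treated library 3 families were called higher (tRNA-Gly-CCC, tRNA-Gly-GCC and tRNA-Ile-TAT), and without the second 1 (tRNA-Arg-TCT). At single positions 0 of 112 loop sites were called by edgeR, against 10.7% of 1914 sites, with 9 at an unadjusted p under 0.05 and 0 by DESeq2. Scaling to the library total called 17 sites higher and 3 lower, and with TMM factors 7 higher and 5 lower. Without the second treated library 3 sites were called, all of tRNA-Arg-TCT (positions 44, 45 and 46).

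The 5-ClUrd effects of the enzymes were compared with each other in 1 fit of all 8 libraries. The difference passed the threshold in 0 of 25 loop families (edgeR), with 0 at an unadjusted p under 0.05 and 0 by DESeq2, and in 0% of all 336 features. The median log2 difference, DUS2L minus DUS1L, was -0.26 over the loop families and -0.27 over all features. Without the first untreated DUS1L library 3 families were called lower (tRNA-Arg-CCT, tRNA-Met-CAT and tRNA-Phe-GAA), and without the second 2 were called higher (tRNA-Arg-TCG and tRNA-Arg-TCT).

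Between the treated groups, the loop share of tRNA-Trp-CCA, which reads the tryptophan codon, was lower with DUS2L. It was 1.07% and 0.608% with DUS2L and 9.32% and 4.51% with DUS1L (log2 difference -3.05 ± 0.84, SE, n = 2 per group; adjusted p = 0.0368, edgeR). It was the only loop family of 25 called in the fit of all 8 libraries, against 8.63% of 336 features called in either direction and 5.36% called lower. A further 5 had an unadjusted p under 0.05, and DESeq2 called 3 (tRNA-Arg-ACG, tRNA-Trp-CCA and tRNA-Val-AAC). By library, 17 of the 25 lay lower in both DUS2L libraries than in both DUS1L libraries, against 54.5% of all features, and 0 lay higher, against 17.9%. Scaling to the library total called 1 higher and 17 lower, with TMM factors 2 higher and 2 lower. tRNA-Trp-CCA was not called with TMM factors (adjusted p = 0.251, edgeR) or with DESeq2 size factors (adjusted p = 0.171, edgeR). The median log2 difference was -1.30 over the loop families and -0.88 over all features.

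How many families were called between the treated groups depended on which libraries set the spread. Leaving out the first untreated DUS1L library gave 11 calls and leaving out the second gave 13, all lower with DUS2L, and the 11 were among the 13. Leaving out any one of the other 6 libraries gave 0, with an adjusted p for tRNA-Trp-CCA between 0.0574 and 0.319. A fit of the 4 treated libraries alone, chosen after the data were seen, called 11 of 31 loop families, all lower with DUS2L, against 34.6% of 503 features called in either direction and 22.5% called lower. These fits all compare the same 4 treated libraries, and untreated libraries enter only through the spread and the choice of features. Calls shared between the fits are therefore not a separate check. In the treated fit the log2 difference was -1.87 ± 0.48 (SE) for tRNA-Arg-ACG (adjusted p = 0.00292, edgeR). It was -2.31 ± 0.55 for tRNA-Phe-GAA (adjusted p = 0.00173, edgeR) and -1.36 ± 0.32 for tRNA-Arg-CCT (adjusted p = 0.0015, edgeR). These families were named for their high treated DUS1L share, which favours a lower value with DUS2L. The largest called differences were those of tRNA-Trp-CCA (-3.06 ± 0.72) and tRNA-Gly-CCC (-3.03 ± 0.91).

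In 6 of the 25 families the estimate was above 0, and none of these was called. The highest was tRNA-Ala-CGC, with a log2 difference between treated groups of 1.69 ± 0.99 (SE), and it rested on 1 library, with 4.69% and 0.369% in treated DUS2L and 0.935% and 0.619% in treated DUS1L. The log2 difference was 0.18 ± 0.66 (SE) for tRNA-Ala-AGC, 0.03 ± 0.79 for tRNA-Val-CAC and 0.37 ± 0.72 for tRNA-Arg-TCT in the fit of all 8 libraries. The others were tRNA-Ala-TGC and tRNA-His-GTG. Scaling to the library total in place of the family total turned tRNA-Ala-AGC to -1.90 and tRNA-Arg-TCT to -4.09.

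**Figure D5:**
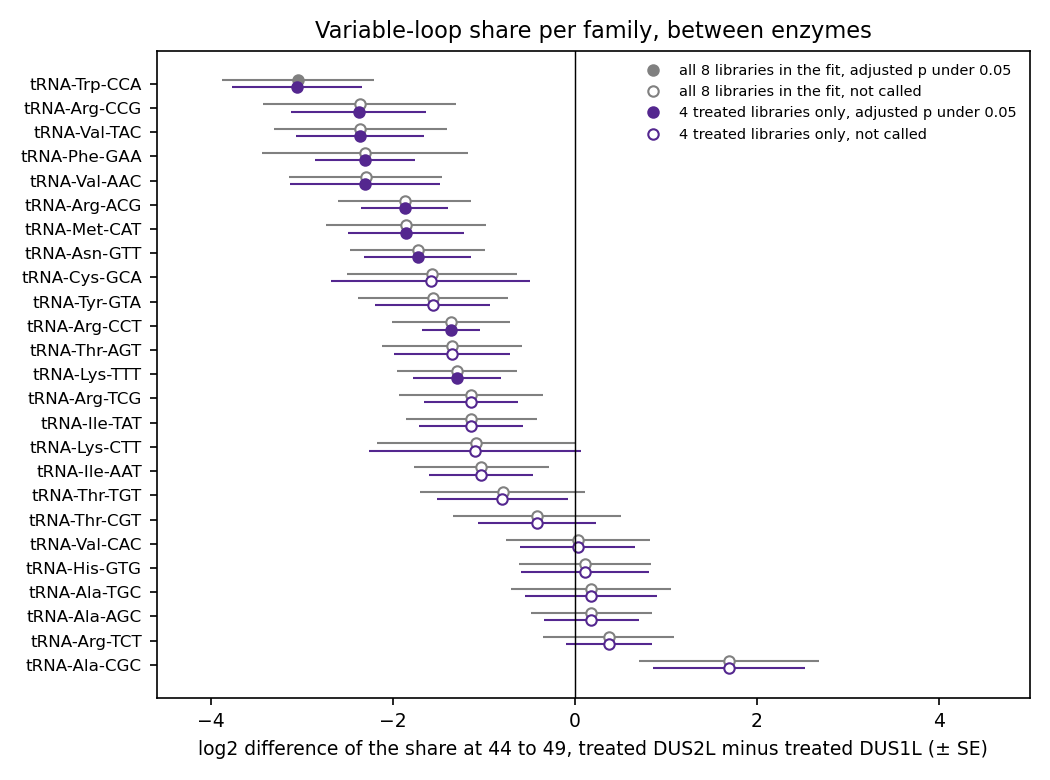
Log2 difference of the loop share between treated DUS2L and treated DUS1L libraries per family, with SE, from the fit of all 8 libraries (grey) and of the 4 treated libraries (purple). Filled points have an adjusted p under 0.05. Estimates of both fits nearly coincide, and the bars are shorter in the fit of treated libraries for most families, with tRNA-Trp-CCA filled in both.

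The regions on both sides of the loop were also lower with DUS2L. By treated group mean, so was every other region from position 22 onward, so the lower share was not particular to the loop and its neighbours. In treated cells, positions 39 to 43, on the 3′ side of the anticodon stem, held 4.17% ± 0.723 of type I counts with DUS1L and 0.913% ± 0.186 with DUS2L (SD, n = 2). Positions 50 to 53, on the 5′ side of the T stem, held 2.28% ± 0.822 and 0.948% ± 0.522. The D loop (positions 14 to 21) held 20.6% ± 0.0527 and 26.3% ± 1.64. Positions 1 to 9 held 8.13% ± 0.896 with DUS1L and 32.03% ± 3.82 with DUS2L, and positions 10 to 13 were also higher with DUS2L. All of these are shares of the same total, so higher shares toward the 5′ end and lower shares further on are not separate results. Median log2 differences per family between the treated groups were -1.43 over 25 families for positions 39 to 43, -1.30 for the loop and -1.82 over 23 families for positions 50 to 53. In each of these 3 regions 1 family was called lower, and 3 of 25 were called lower for the D loop. No test set the loop against its neighbours.

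The single sites with the highest treated share of their family were spread over positions 44 to 47. With DUS1L the first was tRNA-Ile-TAT position 47, with 6.22% and 3.89% of the family's counts in the treated libraries and 2.85% and 4.0% in the untreated ones. tRNA-Lys-TTT position 46 had 5.16% and 4.90% treated, and 5.58% and 2.17% untreated. These groups overlapped at both sites. tRNA-Arg-ACG ranked with 3 sites, at positions 47 (3.34% and 3.48% treated, 2.48% and 0.987% untreated), 46 (3.12% and 2.76%) and 45 (3.04% and 2.55%). tRNA-Phe-GAA position 46 had 3.04% and 3.65% treated and 7.17% and 0.0917% untreated, and tRNA-Ile-AAT position 47 had 3.18% and 3.16% treated and 6.22% and 2.56% untreated. The other sites of the first 10 were tRNA-Trp-CCA position 44, tRNA-Met-CAT position 46 and tRNA-Ile-AAT position 46.

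With DUS2L the first site was tRNA-Arg-TCT position 46, with 7.70% and 0.998% treated and 1.64% and 1.14% untreated, again high in 1 library. tRNA-Ile-TAT position 47 had 1.81% and 4.28% treated and 1.46% and 1.15% untreated, and tRNA-Lys-TTT position 46 had 2.15% and 3.43% treated and 1.83% and 1.79% untreated. tRNA-Ala-AGC position 45 had 2.44% and 2.23% treated and 0.865% and 1.26% untreated. At these 3 sites both treated libraries lay above the untreated ones, and none was called. Picking sites by their treated share favours this order. The remaining sites were positions 45 and 44 of tRNA-Arg-TCT, position 47 of tRNA-Ile-AAT, position 46 of tRNA-Arg-CCT and positions 45 of tRNA-Ala-CGC and tRNA-Arg-TCG. For tRNA-Ala-CGC position 45 the treated values were 2.76% and 0.123%, so this site too rested on 1 library.

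Few of the authors' deposited peaks reached the loop. Peaks that overlapped positions 44 to 49 numbered 3 and 0 in untreated DUS1L, 8 and 4 in treated DUS1L, 1 and 0 in untreated DUS2L and 5 and 2 in treated DUS2L, of 34 to 170 peaks on type I tRNA per library. tRNA-Ile-AAT-12-1 carried a peak at positions 46 to 47 in 4 libraries, with summed counts of 196 in the first untreated DUS1L library, 1104 and 825 in the treated DUS1L libraries and 119 in the second treated DUS2L library. tRNA-Thr-CGT-4-1 carried one at positions 44 to 45 in 3 DUS1L libraries, with 20 counts untreated and 148 and 96 treated. The peak of tRNA-Arg-TCT-3-2 at positions 44 to 46 held 147 counts and was called in the first treated DUS2L library. A deposited peak score equalled the sum of the site counts inside it in 1680 of 1680 peaks, so peaks are not a second measurement.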

How the data were processed

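The deposited site files of 8 iCLIP libraries give raw whole-number counts per nucleotide and strand, per library; no normalization was found in the values. STAR 2.7.0f and hg38 are named per the submitters' processing notes. Not given in the sources used here are site and peak calling, filters, and the handling of molecular identifiers and multi-mapped reads.

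Sense counts were summed per tRNA family and region, or family and position. Features with at least 10 counts, in families with at least 10 counts in every library of the fit, entered a quasi-likelihood F test in edgeR 4.0.16 under R 4.3.3, with the log family total as offset, Benjamini-Hochberg adjustment over all features and a threshold of 0.05. SE is the absolute log2 change over the square root of F. DESeq2 1.42.0 was an alternative. 5-ClUrd was compared with untreated within 4 libraries of an enzyme; the difference of effects and the treated groups were compared in 1 fit of all 8. Pooled shares were compared by exact permutation. Python 3.11.15 with matplotlib 3.10.9, scipy 1.17.1, numpy 2.4.6 and pandas 2.3.3 served for tables and figures. The fits were tested on simulated data with the same spread setting for every feature. This setting was not estimated from these libraries, whose spread was wide in places (loop shares of 7.49% and 1.10% in untreated DUS1L). The recoveries that follow therefore do not tell what could be detected in these data. Changes of 4-fold were recovered in 70% of changed family regions with DUS1L and 47.5% with DUS2L. Recovery was 22.5% for the difference of effects, 95% between treated groups, and 34% and 43% for DUS1L and DUS2L sites. At 8-fold it ranged from 75% to 92.5%. False calls made up 0% to 10% of calls.

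Named were the 8 families and 10 sites of highest mean treated share per enzyme, up to 8 families and 6 sites called per direction, and, after their values were seen, single references and other families where a count turned on them. The members, lists and tests were chosen with earlier results of these data known. The series describes the replicates as biological; p-values measure the spread between these libraries. Same-numbered libraries did not deviate together (correlations -0.0461 in DUS1L and -0.0307 in DUS2L, with 2 pairs each), so the numbers were not taken to pair them. Antisense counts were left out. Where 1 library of a group was left out, the remaining one was taken to vary as libraries of other groups do.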

Additional observations from a re-analysis of the deposited data

How the results depend on the processing

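The cause of the changes below was not tested, except that scaling to library totals no longer cancels changes of a whole family and that fewer libraries or references change what is fitted. The alternatives on references past position 49, on positions from the 3′ end and on treated libraries alone were added after the data were seen.

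The pooled difference between treated and untreated DUS1L (1.07 points) turned to -2.40 without sites above 500 counts and ran from -2.12 to 4.27 with a library left out. That of DUS2L (0.200) turned to -0.631 without those sites, and was 0.0935 with positions from the 3′ end and 0.313 with equal weights. Between treated groups (-4.33) it stayed below 0 in all alternatives run, at -3.63 for positions 45 to 49, -5.57 without sites above 500 counts, -1.02 with each site counted once, -5.31 on references past position 49, -3.47 from the 3′ end and -1.88 with equal weights.

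Counts of called families in DUS1L, DUS2L and between treated groups (0, 0 and 1) became 5, 11 and 18 with library totals, 3, 9 and 4 with TMM factors, and 3, 9 and 5 with DESeq2 size factors, where the difference of effects gave 1. A minimum of 1 count gave 1 in DUS2L. Between treated groups, DESeq2 gave 3, leaving out sites above 500 counts 2, references past position 49 2, and treated libraries alone 11. Called sites (2 in DUS1L, 0 in DUS2L) became 23 and 20 with library totals, and 15 and 12 with either TMM or DESeq2 size factors. They became 5 and 1 without sites above 500 counts, 1 and 1 with all 8 libraries in a fit, and 1 in DUS1L on references past position 49.

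With a library left out, called families ranged from 0 to 8 in DUS1L, 0 to 3 in DUS2L, 0 to 3 for the difference of effects and 0 to 13 between treated groups, and called sites from 1 to 17 and from 0 to 3. With the replicate number as a block, 0, 0, 0 and 1 families and 3 and 0 sites were called, which changed no call of a family. The libraries share only a number.

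Of the named families, 8 values changed sign. tRNA-Arg-TCG turned to -2.79 (TMM), -2.75 (DESeq2 size factors) and -0.67 (without the second untreated library, against 2.98 without the first) in DUS1L, and to -2.00 and -2.05 with these factors in DUS2L. tRNA-Arg-TCT turned to 1.07 in DUS1L without the first untreated library (-0.84 without the second) and to -4.09 between treated groups with library totals, where tRNA-Ala-AGC turned to -1.90. Depth limits the untreated DUS1L comparison, since its second library held 78 counts in the loop, and its libraries also differed by more than counting error (1.10%, 95% Wilson interval 0.880% to 1.37%, against 7.49%).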

Other observations

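The antisense strand of positions 44 to 49 of type I tRNAs held 16 and 3 counts in untreated DUS1L, 22 and 18 in treated DUS1L, 25 and 78 in untreated DUS2L and 19 and 70 in treated DUS2L. As a share of both strands this was between 0.0491% and 3.70% in DUS1L and between 0.746% and 9.21% in DUS2L.

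In type II tRNAs, where positions 44 to 49 lie in the long variable arm, these positions held 1.74% and 0.45% of type II counts in untreated DUS1L, 3.32% and 2.26% in treated DUS1L, 2.01% and 1.86% in untreated DUS2L and 1.21% and 0.715% in treated DUS2L. Both treated DUS2L libraries lay below both untreated ones there.

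Initiator methionine tRNA (tRNA-iMet-CAT) held at most 12 loop counts in any library, those in the first treated DUS2L library, and was not tested.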
